A study of Mus musculus with 17 samples.

Results

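The genes described here are the GATA transcription factors of blood cells and the proteins that work with them on DNA. They are 10 of the 46880 genes shared by the 3 deposited tables, chosen by name: Gata1, Gata2, Gata3, Zfpm1, Tal1, Lyl1, Lmo2, Ldb1, Cbfa2t3 and Gfi1b. Each was followed in RNA sequencing of 17 libraries of mouse fetal liver cells. The embryos were taken between E12.5 and E13.5 from a B6J.129 strain with the allele Gt(ROSA)26Sortm1.1, which holds CAG-cas9* and EGFP, so every group, controls included, carried Cas9 and EGFP under the broadly active CAG promoter. In 5 groups the first transgene was sgGata1, a guide RNA against Gata1, and the labels call these cells Gata1s. Their second transgene was LUC (luciferase, n = 3) or Arid3a (n = 3), with 1 µg/mL doxycycline for 48 h, or sh-ctrl (n = 3), shArid3a (n = 2, numbered 1 and 3) or miR-125b (n = 3), with 1 µg/mL doxycycline for 10 days. The WT group (n = 3) carried sgLuc and shLuc and received no doxycycline. The study altered Arid3a, a gene for an AT-rich-interaction-domain transcription factor, in Gata1s cells, and the question here is what the GATA genes and their partners did alongside. The labels do not say whether libraries of a group came from separate embryos or cultures, so p-values measure only the spread between these libraries, which may be technical.

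GATA factors bind the DNA motif WGATAR (W is A or T, and R is A or G). GATA2 acts in stem and progenitor cells and mast cells, GATA1 in erythroid cells, megakaryocytes, mast cells and eosinophils, and GATA3 mainly in T and innate lymphoid cells, and as blood progenitors mature along the erythroid and megakaryocyte paths GATA1 takes over sites held by GATA2. GATA1 binds FOG1, the product of Zfpm1, and joins a complex in which the basic helix-loop-helix factor TAL1, or its relative LYL1, is linked to the GATA factor by the bridge proteins LMO2 and LDB1, while ETO2 (Cbfa2t3) and GFI1B bring in repressors. The short form of GATA1, GATA1s, lacks the amino-terminal part of the protein but keeps the zinc fingers that bind DNA and FOG1.

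Sequences show where the microRNA and a GATA factor could meet these genes. The mature miR-125b-5p is given with its seed, bases 2 to 8, in capitals, followed by seed matches in 3′ untranslated regions (GRCm38, minus strand for Ldb1 and Cbfa2t3, plus strand for Arid3a), with the match in capitals.
mmu-miR-125b-5p: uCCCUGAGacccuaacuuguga
Ldb1, 8mer at chr19:46032195-46032202: ggttccctccCTCAGGGAgcacagaggg
Cbfa2t3, 7mer at chr8:122625637-122625643: gcgagctgggCTCAGGGggactgtcta
Arid3a, 8mer at chr10:79952887-79952894: cctcctgtgcCTCAGGGAtgacagtgct
Arid3a, 8mer at chr10:79953820-79953827: gggtaactggCTCAGGGAtatagcagcc
An 8mer (CTCAGGGA) pairs with the whole seed and has an A beside it, and a 7mer-m8 (CTCAGGG) lacks that A. Of the 10 genes, Ldb1 held 1 8mer, 1 7mer-m8 and 2 matches of the 7mer-A1 kind (TCAGGGA), and Cbfa2t3 held 1 7mer-m8. The other 8 held none in the longest annotated 3′ untranslated region, where 4.60% of 21039 genes have an 8mer and 19.5% have any of the 3 kinds. Both sites printed for Ldb1 and Cbfa2t3 lie outside the gene spans in the deposited tables, whereas the Arid3a sites lie inside. A match is a description of these letters and not a measured site.

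The motif WGATAR was searched with A or T as its first letter and A or G as its last (such as TGATAA), on both strands, in RefSeq promoters (GRCm38.p6, from 250 bases before to 50 after the start site). RefSeq promoters were at hand for 9 of the 10 genes, 14 promoters in all, and 5 of the 14, in 5 genes, held the motif, against 29.8% of 32851 promoters. Gfi1b, Tal1 and Cbfa2t3, which stood higher in every Gata1s library than in WT, as described further on, are shown by the 250 bases before the start site of their first promoter, with the motif in capitals.
Gfi1b, chr2:28621983-28622232, minus strand: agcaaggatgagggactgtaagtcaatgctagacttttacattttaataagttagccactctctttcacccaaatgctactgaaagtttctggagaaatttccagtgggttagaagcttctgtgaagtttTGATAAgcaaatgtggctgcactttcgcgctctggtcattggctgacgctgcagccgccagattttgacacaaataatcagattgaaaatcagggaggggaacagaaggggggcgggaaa
Tal1, chr4:115056176-115056425, plus strand: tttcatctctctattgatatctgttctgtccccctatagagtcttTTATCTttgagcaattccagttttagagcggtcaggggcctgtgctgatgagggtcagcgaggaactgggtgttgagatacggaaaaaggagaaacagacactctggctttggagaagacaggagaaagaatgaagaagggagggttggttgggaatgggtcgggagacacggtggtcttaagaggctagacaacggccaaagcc
Cbfa2t3, chr8:122699110-122699359, minus strand: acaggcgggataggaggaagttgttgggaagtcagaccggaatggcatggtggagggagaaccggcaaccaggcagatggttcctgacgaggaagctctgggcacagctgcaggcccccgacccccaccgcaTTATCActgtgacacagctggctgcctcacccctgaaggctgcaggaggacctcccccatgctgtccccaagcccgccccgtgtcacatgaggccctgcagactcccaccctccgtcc
The match begins 120 bases before the start in Gfi1b, 205 in Tal1 and 118 in Cbfa2t3. No match was found in these windows for Gata1, Gata2, Zfpm1 and Lyl1, which says only that the letters are not there. Gata1 and Zfpm1 also stood higher in every Gata1s library, while Ldb1, which did not, held 2 matches. The other promoter of Tal1 and that of Cbfa2t3 held none. In these windows the motif was thus present in some genes of both kinds and absent in others, and its part in the levels was not tested.

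Total counts per library were 16362439 to 19212193 in the WT table, 31339238 to 38678649 in the LUC and Arid3a table and 31992089 to 40859301 in the table of the 10-day groups. Levels are given as CPM, counts scaled to a common library size, here with factors from the trimmed mean of M-values (TMM) shared by the 17 libraries. Of the 10 genes, 9 were tested in each table, and Gata3 did not pass the filter on low counts. Arid3a itself was at 53.3, 69.2 and 74.5 CPM in the libraries labelled Arid3a, against 62.4, 59.3 and 64.7 in LUC, so replicate 1 lay below and replicates 2 and 3 above all LUC libraries. It was not called higher (log2 fold change 0.08, edgeR adjusted p-value 0.737, and 0.21, edgeR adjusted p-value 0.0623, without Arid3a replicate 1). Whether reads of the transgene could be counted is not given in the sources used here, so these values may leave the transgene out. It was called lower in shArid3a (−1.43, edgeR adjusted p-value 0.0368) and in miR-125b (−2.56, edgeR adjusted p-value 0.000282). Replicate 1 of the libraries labelled Arid3a stood apart from replicates 2 and 3, and values without it are given for part of the results. The lists of target and partner genes further on were tested only with it. In these bulk samples, fewer cells of a type and less RNA per cell cannot be told apart.

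Gata1, on chromosome X (7959260 to 7978071, minus strand, GRCm38, protein-coding), is the gene the guide targets. Its counts cover the whole gene and cannot separate full-length from short GATA1, so its level checks neither the edit nor the protein. Gata1 was at 71.8, 68.1 and 60.0 CPM in WT. It was at 298, 318 and 298 CPM in LUC and at 273, 233 and 270.2 CPM in the libraries labelled Arid3a. In the 10-day groups it was at 349, 482 and 595 CPM in sh-ctrl, 350.5 and 479 in shArid3a, and 275, 316 and 450.5 in miR-125b. All 14 Gata1s libraries therefore lay above all 3 WT libraries, and the lowest of them, at 233 CPM, was over 3 times the highest WT value. In rising order, the group means were WT (66.6 ± 6.04), Arid3a (259 ± 22.3), LUC (305 ± 11.7), miR-125b (347 ± 91.8), shArid3a (415 ± 90.7) and sh-ctrl (475 ± 123) (CPM, SD). In that order LUC and miR-125b, miR-125b and shArid3a, and shArid3a and sh-ctrl overlapped in their libraries. The comparison with WT has no test, since guide, doxycycline, second transgene and table all differ, and their parts cannot be told apart.

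Gata2 (chromosome 6, 88193891 to 88207032, plus strand) did not share this step. It was at 274, 260.0 and 216 CPM in WT and at 337, 402 and 439 in LUC. The libraries labelled Arid3a had 742, 344 and 360.1 CPM, so replicate 1 held about as much Gata2 as both others together. In the 10-day groups it was at 344, 169 and 303 CPM in sh-ctrl, 309 and 233 in shArid3a, and 245, 209.9 and 224 in miR-125b. Of these 8 libraries, 3 lay within the WT range, 3 above it and 2 below it. Such counts depend on the scaling. With library totals every miR-125b library (186 to 196 CPM) lay below all WT libraries (249.8 to 306 CPM). The miR-125b mean was then 0.678 times WT. The group means were 226 ± 17.7 (miR-125b), 250.2 ± 30.1 (WT), 271 ± 54.0 (shArid3a), 272 ± 91.4 (sh-ctrl), 393 ± 51.7 (LUC) and 482 ± 225 CPM (Arid3a). Neighbours in that order overlapped, sh-ctrl (169 to 344) and LUC (337 to 439) only at their ends.

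Gata3 (chromosome 2, 9857078 to 9890034, minus strand) was near the detection limit throughout. WT libraries had 4, 15 and 12 counts. LUC had 0 in each, the libraries labelled Arid3a 0, 1 and 0, sh-ctrl 1, 4 and 0, shArid3a 1 and 0, and miR-125b 0, 4 and 0. A count of 0 allows up to 3 counts at this depth, for counting error only, so Gata3 is not described further.

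**Figure D1:**
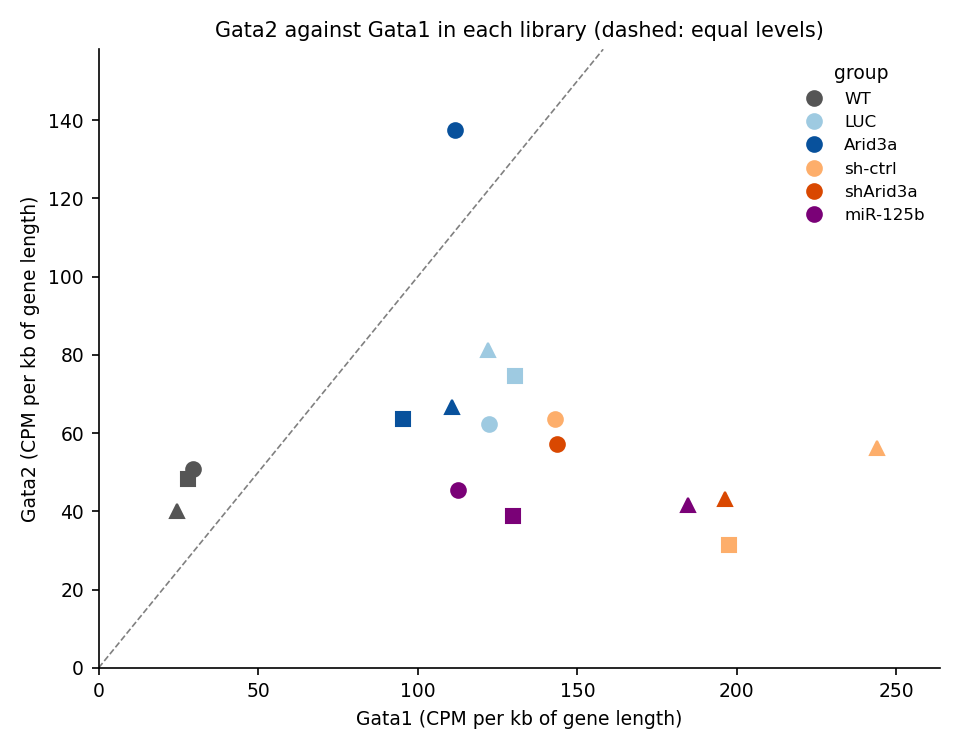
Gata2 against Gata1 in CPM per kb of gene length in each of 17 libraries, with colour for the group, circle, square and triangle for replicates 1, 2 and 3, and a dashed line at equal levels. The 3 WT libraries and replicate 1 of the libraries labelled Arid3a lie above the line, and the other 13 lie below it.

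Per kb of gene length, which allows levels of different genes to be compared, Gata2 exceeded Gata1 in WT and not in most Gata1s libraries. The Gata2:Gata1 ratio of CPM per kb was 1.72, 1.72 and 1.63 in WT. It was 0.510, 0.571 and 0.666 in LUC and 1.23, 0.666 and 0.602 in the libraries labelled Arid3a. In the 10-day groups it was 0.445, 0.159 and 0.230 in sh-ctrl, 0.399 and 0.220 in shArid3a, and 0.403, 0.300 and 0.225 in miR-125b. WT thus stood above every Gata1s library in this ratio, and no 10-day library reached the lowest 48 h value of 0.510. Within the tables the log2 difference was 0.45 for Arid3a against LUC (exact two-sided permutation p = 0.2; 0.13 without Arid3a replicate 1), 0.23 for shArid3a against sh-ctrl (exact p = 0.8), 0.25 for miR-125b against sh-ctrl (exact p = 0.8) and 0.02 for miR-125b against shArid3a (exact p = 0.7). With 3 against 3 libraries no exact p under 0.1 is possible, nor with 3 against 2, and these tests ignore the replicate numbers. In the same-numbered pairs, shArid3a lay below sh-ctrl by log2 −0.16 and −0.06, and miR-125b differed from sh-ctrl by −0.15, 0.92 and −0.03. Without sh-ctrl replicate 2 the differences turned to −0.11 for shArid3a and −0.09 for miR-125b, so both positive values depend on that library. The difference for shArid3a also turned, to −0.20, without shArid3a replicate 1.

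**Figure D2:**
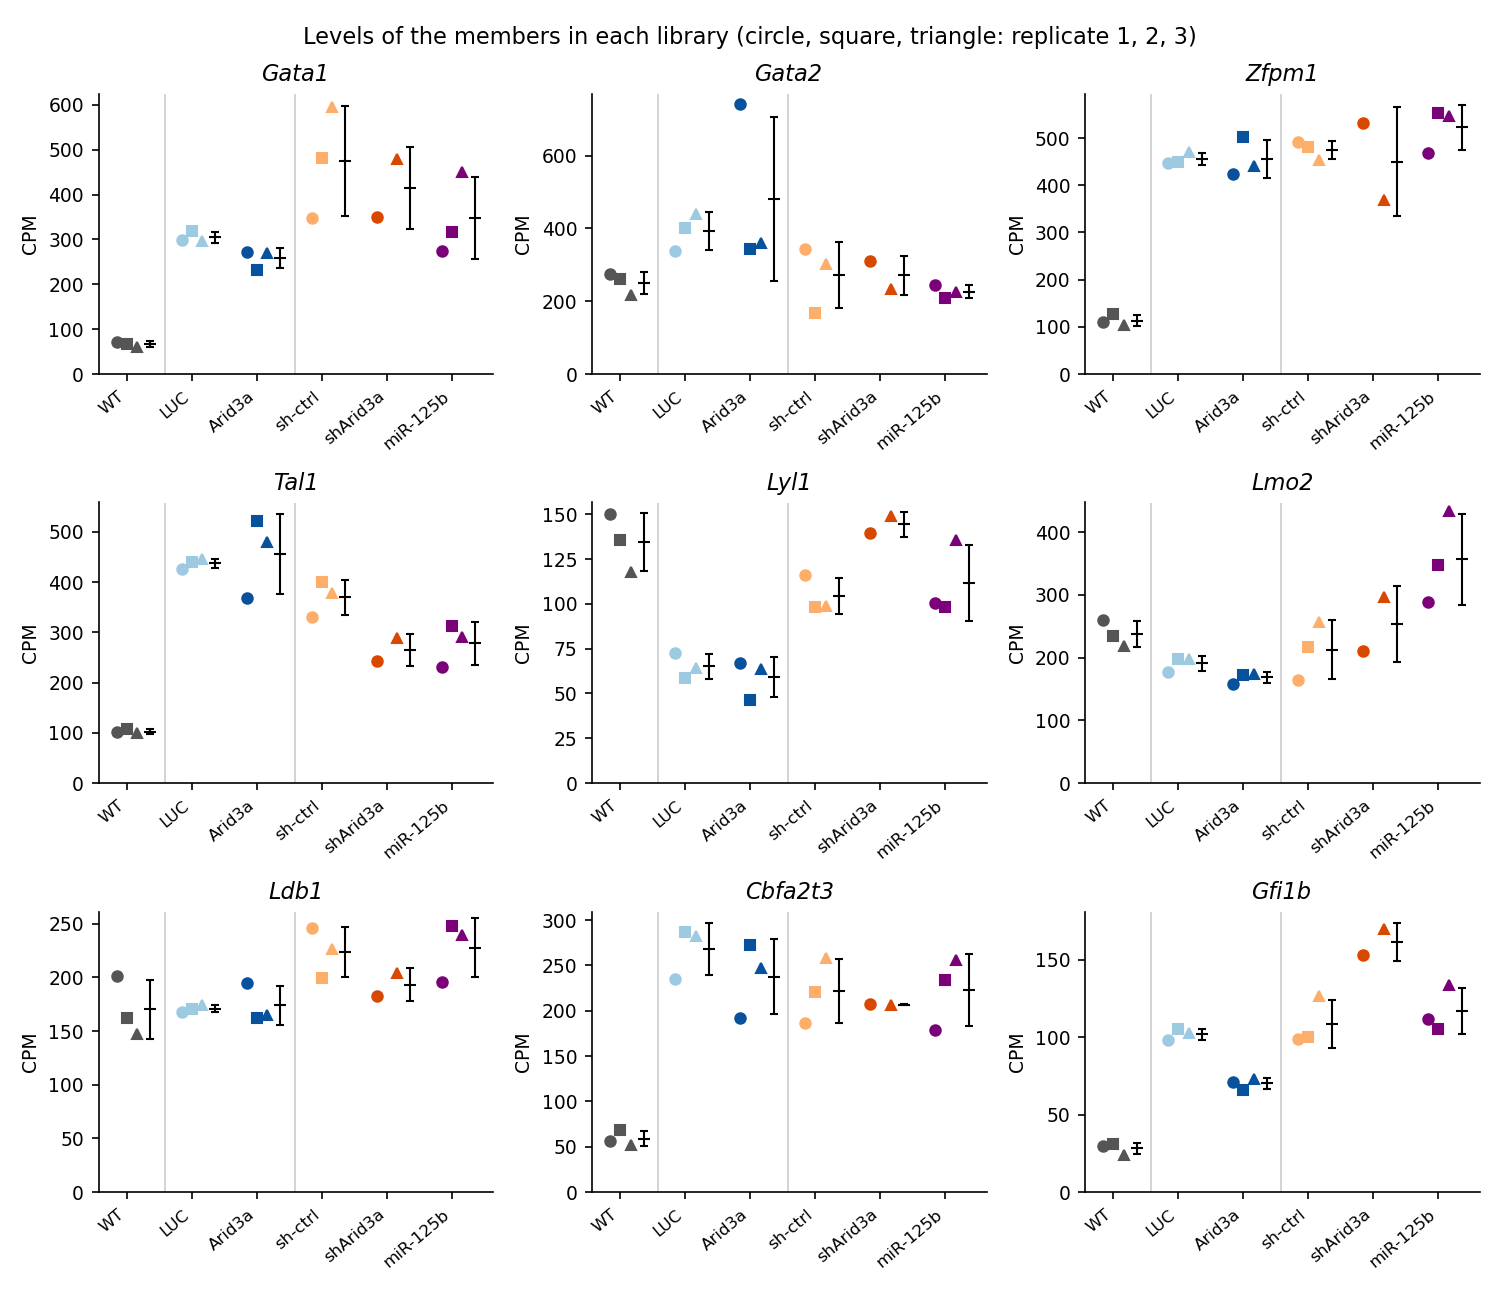
CPM of the 9 genes above the filter in each library, by group, with circle, square and triangle for replicates 1, 2 and 3 and bars for the mean and SD; grey lines divide the 3 tables. Gata1, Zfpm1, Tal1, Cbfa2t3 and Gfi1b lie lowest in the 3 WT libraries, and Lyl1 lies highest in WT and shArid3a.

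Among the partners, Zfpm1 (chromosome 8, 122282141 to 122337251, plus strand), which encodes the GATA cofactor FOG1, stood with Gata1. It was at 109, 126 and 104 CPM in WT. LUC had 447, 449 and 470.2 CPM, the libraries labelled Arid3a 424, 502 and 440.2, sh-ctrl 491, 480.2 and 453, shArid3a 531 and 368, and miR-125b 467, 553 and 548. The 5 Gata1s groups were 3.97 to 4.61 times WT and overlapped one another. Of the 9 genes above the filter Zfpm1 was the one whose group means varied least, in proportion, among the Gata1s groups, from 449.8 to 523 CPM.

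Tal1 (chromosome 4, 115056426 to 115071755, plus strand) and Lyl1 (chromosome 8, 84701457 to 84704715, plus strand) encode related helix-loop-helix factors that can occupy the same place in the complex, and they stood on opposite sides of WT. Tal1 was at 101, 108 and 98.9 CPM in WT, 426, 440.1 and 445 in LUC and 367, 522 and 480 in the libraries labelled Arid3a. It was at 331, 399 and 379 CPM in sh-ctrl, 243 and 288 in shArid3a, and 230.0, 313 and 291 in miR-125b. Every Gata1s library exceeded WT, by 2.59 to 4.45 times as group means, with the lowest Tal1 in shArid3a and miR-125b. Lyl1 was at 150.4, 136 and 118 CPM in WT, 72.6, 58.5 and 64.3 in LUC and 67.2, 46.5 and 63.8 in the libraries labelled Arid3a. It was at 116, 98.4 and 98.7 CPM in sh-ctrl, 139.6 and 149 in shArid3a, and 100.4, 98.4 and 136 in miR-125b. Lyl1 lay below all WT libraries in 11 of 14 Gata1s libraries, by most in the 48 h groups (0.484 and 0.440 times WT), and both shArid3a libraries lay inside the WT range. Per kb, Lyl1 was at 74.8 against 23.4 for Tal1 in WT, and at 36.2 against 99.8 in LUC. In shArid3a it was at 80.2 against 60.6, and in miR-125b at 62.0 against 63.5.

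The bridge proteins did not follow Gata1. Lmo2 (chromosome 2, 103957986 to 103981878, plus strand), a LIM-only adaptor, was at 259.6, 234 and 218 CPM in WT, 177.2, 198 and 198 in LUC and 158, 173 and 174 in the libraries labelled Arid3a. It was at 164, 218 and 258 CPM in sh-ctrl, 210.5 and 296 in shArid3a, and 289, 348 and 434 in miR-125b. The 48 h groups lay below WT (0.805 and 0.710 times), and all 3 miR-125b libraries lay above WT (1.505 times). The latter depends on the scaling. With library totals the miR-125b mean was 1.14 times WT, and replicate 1 (231 CPM) lay below all WT libraries (252 to 290 CPM). Ldb1 (chromosome 19, 46031570 to 46045214, minus strand), the LIM-domain-binding dimerization protein, was the steadiest against WT. It was at 201, 162 and 147 CPM in WT, 168, 170.5 and 174 in LUC and 195, 162 and 165 in the libraries labelled Arid3a. It was at 246, 199 and 227 CPM in sh-ctrl, 183 and 204 in shArid3a, and 196, 248 and 239.7 in miR-125b, and its group means were 1.00 to 1.34 times WT.

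The corepressor genes, like Gata1, were higher in Gata1s libraries than in WT. Cbfa2t3 (chromosome 8, 122625141 to 122699109, minus strand), which encodes ETO2, was at 55.8, 68.3 and 52.4 CPM in WT, 235, 287 and 283 in LUC and 192, 273 and 248 in the libraries labelled Arid3a. It was at 187, 220.3 and 258 CPM in sh-ctrl, 207 and 207 in shArid3a, and 179, 234 and 256 in miR-125b. The Gata1s groups were 3.51 to 4.56 times WT and overlapped one another, except that LUC lay above shArid3a. That pair, after 48 h and after 10 days of doxycycline, was not tested. Gfi1b (chromosome 2, 28609450 to 28621982, minus strand), a zinc-finger repressor needed for erythroid cells and megakaryocytes, was at 29.9, 30.8 and 24.0 CPM in WT, 98.2, 105 and 103 in LUC and 71.3, 66.1 and 73.3 in the libraries labelled Arid3a. It was at 98.7, 100.2 and 126 CPM in sh-ctrl, 153 and 170.0 in shArid3a, and 112, 105 and 133 in miR-125b. Gfi1b varied most among the corepressors, from 2.49 times WT with Arid3a to 5.73 times with shArid3a.

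Taking WT against all Gata1s libraries, 5 of the 9 genes (Gata1, Zfpm1, Tal1, Cbfa2t3 and Gfi1b) were higher in all 14 Gata1s libraries than in all 3 WT libraries, where 20.3% of 12275 genes with a mean of at least 1 CPM were. None of the 9 was lower in all 14, where 19.2% of genes were. For the same 5 genes both control groups, LUC and sh-ctrl, also had means at least 3 times WT, which together with the lack of overlap held for 374 of the 12275 genes (3.05%). With scaling by library totals the same 5 stood above WT in all 14 libraries, as 13.7% of genes did, and Lyl1 lay below WT in all 14, as 22.6% did. The folds shrank with library totals, for example from 2.59 to 1.93 for Tal1 in shArid3a.

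The order of the genes by level differed accordingly. By CPM per kb, WT was led by Lmo2 (109.6 ± 9.67), Lyl1 (74.8 ± 9.05), Ldb1 (47.5 ± 7.75) and Gata2 (46.4 ± 5.58), of which the last pair overlapped. LUC was led by Zfpm1 (130.1 ± 3.63), Gata1 (124.9 ± 4.79), Tal1 (99.8 ± 2.18) and Lmo2 (88.2 ± 5.58), with Zfpm1 and Gata1 within their spread. In sh-ctrl, Gata1 led (195 ± 50.6), then Zfpm1 (135.5 ± 5.59) and Lmo2 (98.3 ± 21.8). With miR-125b, Lmo2 led (165 ± 33.5), then Zfpm1 (149 ± 13.7) and Gata1 (142 ± 37.7), and those 3 did not differ beyond their spread. Cbfa2t3 was lowest or next to lowest among the 9 in WT, sh-ctrl, shArid3a and miR-125b.

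**Figure D3:**
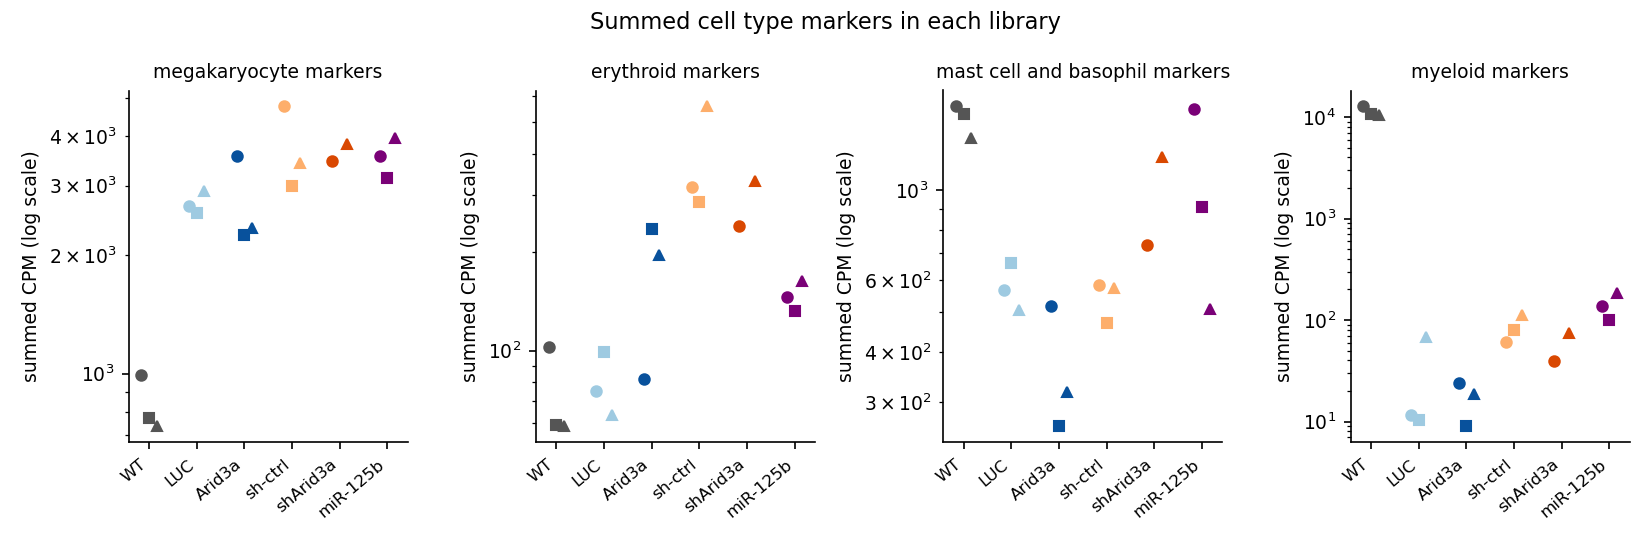
Summed CPM of marker lists for megakaryocytes, erythroid cells, mast cells and basophils, and myeloid cells in each library, on log axes, with circle, square and triangle for replicates 1, 2 and 3. Myeloid markers sum to 10521 or more in WT and to 184 or less in every Gata1s library, and these 5 megakaryocyte markers are lowest in WT. In the mast cell and basophil panel the Gata1s sums are mostly Gzmb.

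Marker lists differed between WT and Gata1s libraries to unequal extents and not all in one direction. Megakaryocyte markers (5 of 5 detected, Pf4 and Itga2b highest) summed to 736 to 994 CPM in WT and to 2243 to 4763 in the Gata1s libraries. The other genes of the megakaryocyte target list described further on were split as group means. Nfe2 (229 CPM in WT against 393 to 611) and Gp5 (48.5 against 69.2 to 120) were higher in every Gata1s group. Gp1ba, Gp6 and Rab27b lay on both sides of WT, and Tubb1, Vwf, Ppbp, Clec1b, Selp and Treml1 were lower. Tubb1, a platelet tubulin gene, was at 19.2 CPM in WT and at 0.225 to 1.78 in Gata1s groups, and Vwf, the von Willebrand factor gene, at 63.0 against 4.85 to 16.4. The chemokine gene Ppbp was at 70.6 CPM against 12.1 to 28.8, although 1 library labelled Arid3a reached 82.3. Myeloid markers (7 genes, led by Mpo) summed to 10521 to 12708 CPM in WT and to 9.01 to 184 in Gata1s libraries, and eosinophil markers (4 genes) to 375 to 495 against 2.29 to 23.6. Mast cell and basophil markers (10 genes) summed to 1348 to 1610 CPM in WT and to 262 to 1587 in Gata1s libraries, but most of the Gata1s sums is Gzmb, which is also a granule gene of cytotoxic lymphocytes. Gzmb was at 46.0 to 52.7 CPM in WT and at 260.03 to 1151 in Gata1s libraries. The other 9 genes, summed after the values were seen, were at 1296 to 1560 CPM in WT and at 2.30 to 437 in Gata1s libraries, so the groups did not overlap. Erythroid markers (7 genes) summed to 58.8 to 102 CPM in WT and to 63.8 to 558 in Gata1s libraries, and WT overlapped LUC (63.8 to 98.9), with Alas2 and Slc4a1, which mark maturing red cells, under 1 CPM as a mean in every group. The summed levels of macrophage markers were 100.4 to 119 CPM in WT against 1.63 to 7.28, and T and lymphoid markers were at most 13.1 CPM anywhere. Hepatocyte markers reached at most 5.15 CPM in any library, and endothelial markers lay between 121 and 215, carried by Pecam1, which megakaryocytes also express. Cdh5, which defines endothelial cells, was at 0 in every Gata1s library, but was also near the detection limit in WT, at 0.226 to 0.282 CPM. Kdr was at a mean of 10.9 CPM in WT against 0.385 to 1.38 in Gata1s groups. The part of these cell types in the levels of the GATA genes was not tested.

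In the libraries labelled Arid3a against LUC, 0 of the 9 genes were called (edgeR, adjusted p-value under 0.05), as were 0 of all 13495 genes tested (0%). At an unadjusted p-value under 0.05 there were 3 of 9 (Gfi1b, Gata1 and Lmo2), against 21.4% of all genes, and the same 3 had groups that did not overlap, against 27.6%. Gfi1b had the largest difference, 66.1 to 73.3 CPM against 98.2 to 105 in LUC, and the log2 fold change was −0.54 ± 0.07 (SE; edgeR adjusted p-value 0.0701). Lmo2 had −0.18 (SE 0.07, edgeR adjusted p-value 0.216), and Gata1 had −0.23 (SE 0.08). Tal1, Zfpm1 and Ldb1 lay within 0.1 of 0. Gata2 had 0.30 (SE 0.30, edgeR adjusted p-value 0.596), which turned to −0.16 without Arid3a replicate 1. The median absolute log2 fold change was 0.18 over the 9 genes and 0.20 over all genes.

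Without Arid3a replicate 1, 3198 of 13789 genes (23.2%) and 3 of the 9 were called. These were Gfi1b (−0.55, edgeR adjusted p-value 0.00128), Gata1 (−0.27, edgeR adjusted p-value 0.0265) and Tal1 (0.20, edgeR adjusted p-value 0.0393). Replicate 1 had 3560 CPM of summed megakaryocyte markers against 2243 and 2346 in replicates 2 and 3, 82.2 CPM of erythroid markers against 236 and 196, and 165 CPM of the 9 mast cell and basophil markers other than Gzmb against 2.30 and 43.3. LUC libraries had 63.8 to 98.9 CPM of erythroid markers and 27.1 to 33.5 of those 9 genes. The part of these markers in the values of Gata2 and Tal1 was not tested. DESeq2 called Gfi1b with all libraries, where it called 1359 of 13495 genes. So did edgeR without the filter on low counts (adjusted p-value 0.0359), where 71 of 22152 genes were called.

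With the hairpin against Arid3a, 0 of the 9 genes were called against sh-ctrl, where 12 of 14004 genes were (0.0857%, with 0.05% higher and 0.0357% lower). At an unadjusted p-value under 0.05 there were 3 (Gfi1b, Tal1 and Lyl1), against 25.8% of all genes. Those 3 and Ldb1 had groups that did not overlap, against 43.9% of all genes. Gfi1b lay at 153 and 170.0 CPM against 98.7 to 126, and the log2 fold change was 0.55 ± 0.16 (SE; edgeR adjusted p-value 0.103). Lyl1 was at 0.45 (SE 0.17, edgeR adjusted p-value 0.143), and Tal1 was at −0.50 (SE 0.17, edgeR adjusted p-value 0.123). None of these passed the edgeR test. DESeq2 called Gfi1b and Tal1, where it called 1600 of 14004 genes. Without the filter on low counts edgeR called Gfi1b (adjusted p-value 0.0438), where 1237 of 21696 genes were called. Lmo2 was at 0.23 (SE 0.23), Gata1 at −0.22 (SE 0.26) and Gata2 at −0.02 (SE 0.26). The median absolute log2 fold change was 0.23 over the 9 genes, against 0.39 over all genes.

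**Figure D4:**
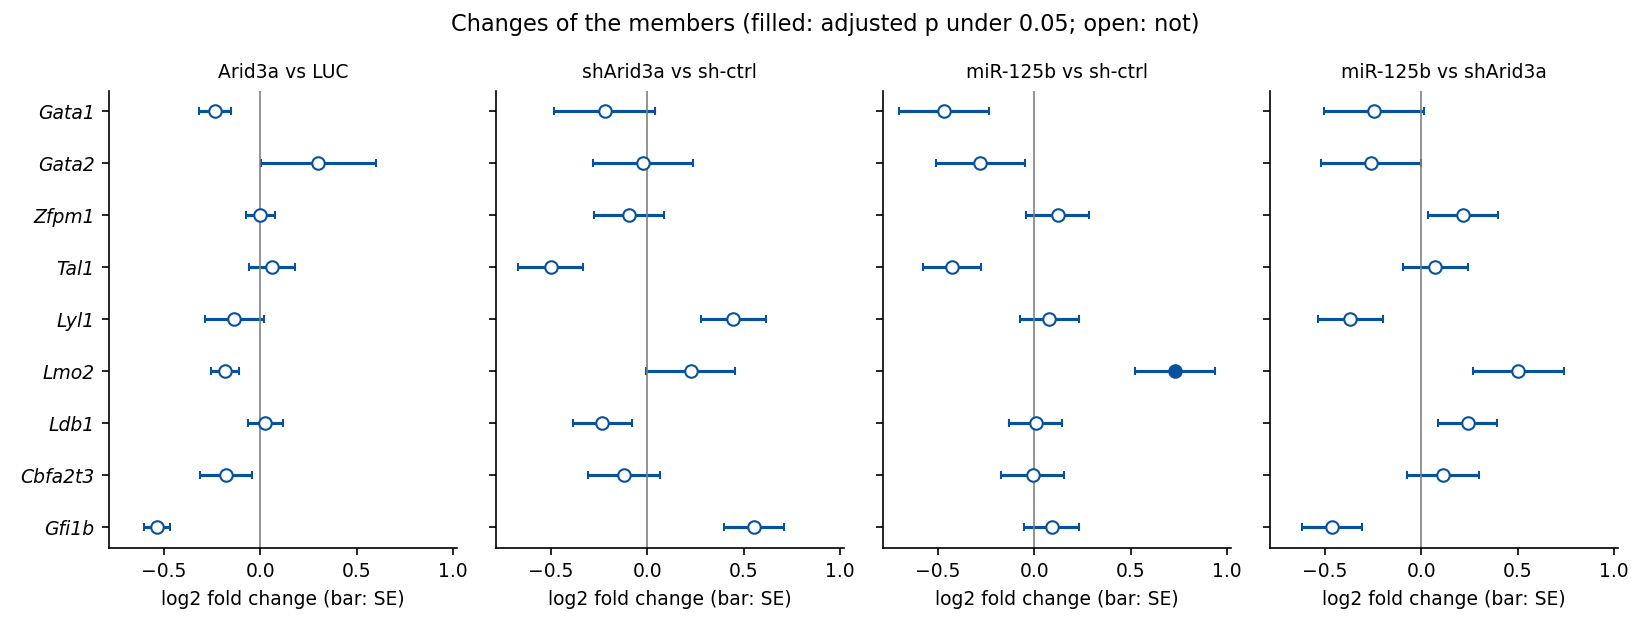
Log2 fold change of the 9 genes in the 4 comparisons, with bars for 1 SE, filled circles for an edgeR adjusted p-value under 0.05 and open circles otherwise. The filled circle is Lmo2 in miR-125b against sh-ctrl, at 0.73.

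With miR-125b against sh-ctrl, 1 of the 9 genes was called, Lmo2, where 24.4% of 14004 genes were (12.1% higher and 12.2% lower). Lmo2 lay at 289 to 434 CPM against 164 to 258, and the log2 fold change was 0.73 ± 0.21 (SE; edgeR adjusted p-value 0.0308), or 1.66-fold. It was higher with miR-125b in each of the 3 same-numbered pairs, by 0.82, 0.68 and 0.75 on the log2 scale. As the groups did not overlap, any pairing of libraries would give this direction. The call of Lmo2 was lost with scaling by library totals (0.54, edgeR adjusted p-value 0.0995), without sh-ctrl replicate 1 (0.55, 0.086), 2 (0.74, 0.0645) or 3 (0.87, 0.0534), and without miR-125b replicate 2 (0.74, 0.0651) or 3 (0.56, 0.0999). Lmo2 has no seed match, and the overlapping 4931422A03Rik on the other strand was at most 3.53 CPM.

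Tal1 was next, at 230.0 to 313 CPM against 331 to 399, groups that did not overlap. Its log2 fold change was −0.43 (SE 0.15, edgeR adjusted p-value 0.0609). At an unadjusted p-value under 0.05 there were 2 of the 9 genes, Tal1 and Lmo2, against 39.8% of all genes, and the same 2 had groups that did not overlap, against 44.9%. Gata1 lay at 275 to 450.5 CPM against 349 to 595, so the groups overlapped, and its log2 fold change was −0.47 (SE 0.23, edgeR adjusted p-value 0.162). Gata2 had −0.28 (SE 0.23). Zfpm1 (0.12), Gfi1b (0.09), Lyl1 (0.08), Ldb1 (0.01) and Cbfa2t3 (−0.01) had values nearer 0, and the first 4 of these turn negative with library totals (−0.06, −0.11, −0.11 and −0.18), a scaling that shifts the median of all genes by −0.19. Ldb1 and Cbfa2t3, which hold the seed matches printed above, thus lay at 228 ± 27.9 against 224 ± 23.4 CPM and at 223 ± 39.8 against 222 ± 35.8 CPM (SD, n = 3 each). The median absolute log2 fold change was 0.12 over the 9 genes and 0.46 over all genes.

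**Figure D5:**
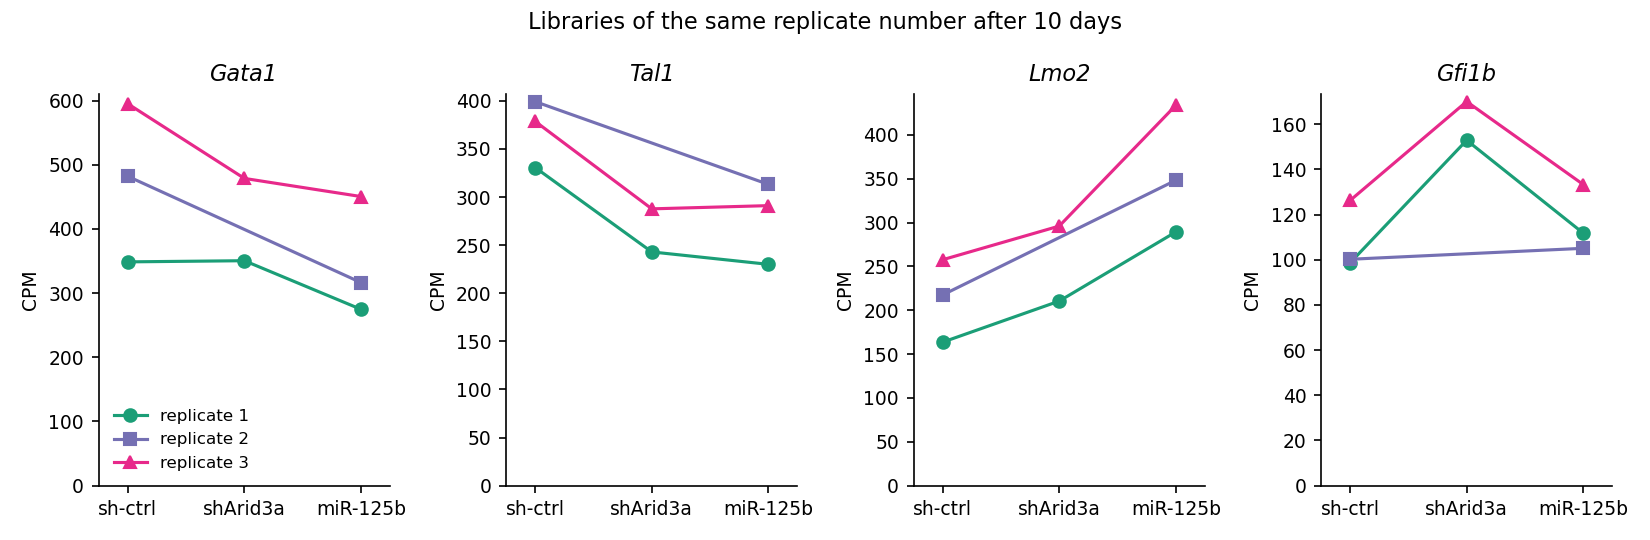
CPM of Gata1, Tal1, Lmo2 and Gfi1b in the 10-day groups, with a line for each replicate number (shArid3a has no library numbered 2). With miR-125b, Gata1 and Tal1 are lower and Lmo2 is higher than sh-ctrl in each of the 3 pairs, and with shArid3a Gfi1b is higher in both pairs. For Tal1, Lmo2 and Gfi1b these groups do not overlap, so any pairing gives the same direction.

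In the 10-day table, deviations from group means correlated positively in all 7 same-numbered pairs (0.151 to 0.431). Differently numbered libraries reached up to 0.364, so whether the numbers pair libraries is not settled. A fit with the replicate number as a block was made as well, and its calls rest on that reading. With this block 3 of the 9 genes were called in miR-125b against sh-ctrl, where 26.3% of all genes were. They were Lmo2 (0.73, edgeR adjusted p-value 0.00832), Tal1 (−0.44, edgeR adjusted p-value 0.0414) and Gata1 (−0.47, edgeR adjusted p-value 0.046). Gata1 was lower with miR-125b in each pair, by 0.34, 0.61 and 0.40 on the log2 scale, and Tal1 by 0.52, 0.35 and 0.38. The Tal1 groups did not overlap, so any pairing of libraries would give its direction. With scaling by library totals Tal1 was the 1 of the 9 genes called (−0.61, edgeR adjusted p-value 0.0252). The main fit, without the block, called 24.4% of all genes in this comparison. The block called 0 of the 9 in both comparisons with shArid3a.

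In miR-125b against shArid3a directly, 0 of the 9 genes were called, where 189 of 14004 genes were (1.35%, with 0.664% higher and 0.686% lower). At an unadjusted p-value under 0.05 there was 1 (Gfi1b), against 14.5% of all genes, and Gfi1b and Lyl1 had groups that did not overlap, against 29.8%. Gfi1b lay at 105 to 133 CPM with miR-125b against 153 and 170.0 with shArid3a, and the log2 fold change was −0.46 ± 0.16 (SE; edgeR adjusted p-value 0.199). Lyl1 had −0.37 (SE 0.17, edgeR adjusted p-value 0.351), and Lmo2 had 0.50 (SE 0.23, edgeR adjusted p-value 0.358). The hairpin and microRNA comparisons share the sh-ctrl libraries, so their values are only set side by side. Tal1 had −0.50 and −0.43, Gata1 −0.22 and −0.47, Gfi1b 0.55 and 0.09, and Lyl1 0.45 and 0.08, for shArid3a and miR-125b in turn.

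Genes that the complex is known to bind or recruit were followed as lists that hold none of the 10. Of 23 further partners and relatives (such as Runx1, Fli1, Klf1 and Tcf3), 14 were tested in the 10-day table and 0 were called in any comparison. Over all genes 24.4% were called in miR-125b against sh-ctrl. In miR-125b against shArid3a 1.35% were, in shArid3a against sh-ctrl 0.0857% and in Arid3a against LUC 0%. The median log2 fold change of these partners was −0.03 in miR-125b against sh-ctrl, where all genes had −0.03. Of 14 corepressor genes, 3 were called higher with miR-125b and 0 lower, where 12.1% of all genes were called higher and 12.2% lower. They encode subunits of the histone deacetylase complex NuRD: Mbd3 (343 ± 28.6 against 207 ± 23.8 CPM, log2 fold change 0.71, edgeR adjusted p-value 0.0107), Rbbp7 (0.65, edgeR adjusted p-value 0.0179) and Hdac2 (0.45, edgeR adjusted p-value 0.0232). The median of the 14 was 0.01.

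Of 16 erythroid GATA1 targets tested (19 listed), 0 were called higher and 4 lower with miR-125b (12.1% and 12.2% over all genes), with a median of −0.56 against −0.03 over all genes. Fech, the last enzyme of heme synthesis, was at 59.9 ± 2.16 against 96.6 ± 4.89 CPM (SD, n = 3 each), lower by log2 −0.71 (edgeR adjusted p-value 0.00648). The beta-globin genes Hbb-bs (48.1 ± 25.3 against 221 ± 99.9 CPM) and Hbb-bt (5.14 ± 4.16 against 19.3 ± 6.36 CPM) are near-identical copies whose reads can be split between them. Ermap, a red cell membrane protein gene, was at 0.0221 ± 0.0193 against 0.718 ± 0.704 CPM. Erythroid markers, some of which are in this list, summed to 133 to 163 CPM with miR-125b against 285 to 558 in sh-ctrl, and their part in these values and in that of Gata1 was not tested. Fech was also lower with miR-125b than with shArid3a (−0.66, edgeR adjusted p-value 0.0383).

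Of 16 megakaryocyte GATA1 targets, 1 was called higher and 6 lower with miR-125b (12.1% and 12.2% over all genes), with a median of −0.44 against −0.03. The platelet glycoprotein receptor subunits differed in direction, Gp1ba at 17.1 ± 2.22 against 52.9 ± 8.26 CPM (log2 fold change −1.65, edgeR adjusted p-value 0.00465) and Gp1bb at 54.7 ± 6.45 against 32.0 ± 4.55 CPM (0.76, edgeR adjusted p-value 0.0115). Vwf (−1.70) and Treml1 (−1.11) were also called lower. Megakaryocyte markers as a sum overlapped, at 3129 to 3967 CPM with miR-125b against 2990 to 4763 in sh-ctrl. Of 9 progenitor genes tested, 1 was called higher (Hhex, 0.54) and 1 lower (Hes1, −2.43). In the libraries labelled Arid3a, with replicate 1 included, 0 genes of these 5 lists were called, as were 0 of all 13495 genes tested. In shArid3a 0 were called, where 12 of 14004 genes were (0.0857%), so neither count sets the lists apart from other genes. The medians for erythroid and megakaryocyte targets were 0.10 and 0.08 in the libraries labelled Arid3a and −0.03 and −0.35 in shArid3a.

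Gzmb was at 477 to 1151 CPM with miR-125b, 720.5 and 1106 with shArid3a and 463 to 495 in sh-ctrl. The other 9 mast cell and basophil markers summed to 437, 39.7 and 34.2 CPM with miR-125b against 7.10 to 99.8 in sh-ctrl and 13.03 and 103 in shArid3a, so miR-125b replicate 1 stood apart and the rest overlapped. Of the 10 genes, 2 were called higher with miR-125b (edgeR), where 12.1% of all genes were. They were Prss34 at 24.5 ± 37.1 and Mcpt8 at 17.2 ± 27.5 CPM (SD, n = 3), both highest in replicate 1 (67.4 and 49.0 CPM). With shArid3a 0 of 10 were called, where 0.0857% of all genes were. Myeloid markers summed to 100.3 to 184 CPM with miR-125b against 60.9 to 113, with 3 of 6 tested called higher (12.1% over all genes). Mpo was at 46.5 ± 20.7 against 0.218 ± 0.351 CPM, while Prtn3 was at 70.6 ± 39.0 against 76.6 ± 27.2 CPM (SD, n = 3 each). Mpo and Lyz2 were also called higher with miR-125b than with shArid3a, where 0.664% of all genes were. The part of these markers in the values of Lmo2, Tal1 and Gata1 was not tested.

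Genes whose levels ran most like Gata1 over the 17 libraries, among 8495 candidates, included Cpne5 (Pearson's r = 0.978 of log2 CPM) and Micall2 (0.971). Those most like Gata2 were Cog6 (0.858), Pcyt1b (0.845) and Ankrd27 (0.832). Among the 10 genes, Gata1 ran most closely with Gfi1b (0.949), Zfpm1 (0.913) and Cbfa2t3 (0.902), and Gata2 ran against Lmo2 (−0.65) and Lyl1 (−0.58). These values describe 17 libraries that fall into 3 tables with different treatments.

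Of the 10 genes, Gata1, Gata2, Tal1 and Gfi1b overlap no other annotated gene, which leaves their counts clear of that limit. Ldb1 overlaps Pprc1 (54.4 to 155 CPM) and Lyl1 overlaps Nfix (28.7 to 62.5 CPM), both on the other strand. As the use of strand in counting is not given in the sources used here, values of Ldb1 and Lyl1 are uncertain to that extent. Genes overlapping Zfpm1, Lmo2 and Cbfa2t3 were at most 6.43 CPM.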

How the data were processed

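Per the labels, total RNA of fetal liver cells was extracted with a Quick-RNA kit and sequenced by standard Illumina protocols. The authors deposited whole-number read counts per gene in 3 tables. The submitters' processing notes name fastp, HISAT2 2.0.5, featureCounts and mm10; their settings, annotation and use of strand are not given in the sources used here. Groups were taken from the labels and 0 per-sample columns were left unused. The 10 genes, the gene lists and the tests were chosen with earlier results of these data known.

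Tables were joined on 46880 shared Ensembl identifiers. Levels are CPM with TMM factors over 17 libraries (edgeR 4.0.16, R 4.3.3). Differences were tested within tables on counts kept by filterByExpr, with a quasi-likelihood model of 1 term per group and Benjamini-Hochberg adjusted p-values over all genes tested (threshold 0.05). The 3 groups of the 10-day table were fitted together, so shArid3a (n = 2) borrows its spread from all 8 libraries. Log values used a prior count of 2, and the Gata2:Gata1 ratio a pseudocount of 0.5 counts. Named were all 10 genes, Arid3a, the 3 genes most correlated with Gata1 and with Gata2 (mean of at least 10 CPM), and up to 4 called genes per list with the smallest adjusted p-value. Of these, 1 gene is not reported here. Gene positions come from GENCODE M21 (GRCm38), and sequences from RefSeq (GRCm38.p6) and GRCm38.

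Deviations from group means of same-numbered libraries correlated by 0.151 to 0.431 over 7 pairs in the 10-day table. Differently numbered libraries correlated by −0.431 to 0.364 over 14. The former was read as possible pairing, though the ranges overlap. Deviations within a group cancel out, so these pairs are not independent. In the LUC and Arid3a table the values were 0.0084 to 0.365 over 3 pairs, which was not read as pairing. Alternatives were library totals, no filter or at least 10 counts in every library, DESeq2 1.42.0, the replicate block, leaving out ribosomal RNA-like genes, fitting only the groups compared and leaving out each library.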

Additional observations from a re-analysis of the deposited data

How the results depend on the processing

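For the 9 genes in 4 comparisons (36 results), 549 alternative values were computed. Of these, 497 kept their direction and side of the threshold, 6 lost the call (all Lmo2 in miR-125b against sh-ctrl), 13 gained one and 33 changed sign, mostly of values near 0. The cause of these changes was not tested.

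Counts of genes called over all genes moved as follows. Without the filter on low counts, 71 were called in Arid3a against LUC, 1237 in shArid3a against sh-ctrl and 715 in miR-125b against shArid3a. DESeq2 called 1359 (of 13495), 1600 and 737 (of 14004 each) there. In shArid3a against sh-ctrl the count was 20 with library totals, 19 with at least 10 counts in every library, and 0 without ribosomal RNA-like genes (edgeR; 3570 at an unadjusted p-value under 0.05). Library totals moved the higher share of the calls from 58.3% to 40% in that comparison and from 49.8% to 26.6% in miR-125b against sh-ctrl. Of the 9 genes, 1 was called without the filter in Arid3a against LUC and 1 in shArid3a against sh-ctrl. DESeq2 called 1 in the former, 2 in the latter and 2 in miR-125b against sh-ctrl. In that comparison at least 10 counts in every library gave 2 and the replicate block 3. Over all genes the block called 26.3% there and the main fit, which called 1 of the 9, 24.4%. The block changed no other call of the 9 genes. In the LUC and Arid3a table, where the numbers were not read as pairs, it called 0 genes (2460 at an unadjusted p-value under 0.05).

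Signs turned as follows. In Arid3a against LUC, Zfpm1 went to −0.0027 with the replicate block and to −0.000188 without ribosomal RNA-like genes. In miR-125b against sh-ctrl, library totals gave −0.18 for Ldb1, −0.11 for Gfi1b, −0.11 for Lyl1 and −0.065 for Zfpm1, and Ldb1 was −0.015 with at least 10 counts and −0.00055 without ribosomal RNA-like genes. Tal1 in miR-125b against shArid3a was −0.012 with the block. Of 60 levels, 26 moved by more than 1 SD with library totals.

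Leaving out each library in turn gave these ranges. Genes called were 0 to 3198 in Arid3a against LUC (highest without Arid3a replicate 1), 2 to 306 in shArid3a against sh-ctrl (without sh-ctrl replicate 3 and miR-125b replicate 1), 734 to 3452 in miR-125b against sh-ctrl (lowest without sh-ctrl replicate 3) and 12 to 329 in miR-125b against shArid3a. Of the 9 genes, 0 to 3, 0 to 0, 0 to 1 and 0 to 0 were called. In Arid3a against LUC, Gata2 ranged from −0.16 to 0.50, Ldb1 from −0.064 to 0.080, Tal1 from −0.042 to 0.20, Lyl1 from −0.24 to 0.014 and Zfpm1 from −0.071 to 0.050. In shArid3a against sh-ctrl, Gata2 ranged from −0.28 to 0.19, Lmo2 from −0.010 to 0.44 and Zfpm1 from −0.40 to 0.17. In miR-125b against sh-ctrl, Cbfa2t3 ranged from −0.14 to 0.13, Ldb1 from −0.075 to 0.11, Gfi1b from −0.022 to 0.19 and Lyl1 from −0.095 to 0.16. In miR-125b against shArid3a, Cbfa2t3 ranged from −0.0054 to 0.25, Tal1 from −0.027 to 0.19 and Zfpm1 from −0.044 to 0.53. The log2 Gata2:Gata1 ratio difference ranged from −0.20 to 0.65 for shArid3a against sh-ctrl, from −0.090 to 0.65 for miR-125b against sh-ctrl and from −0.41 to 0.45 for miR-125b against shArid3a. Where a shArid3a library was left out, the lone one was taken to vary like the other groups, and the ratio had no test.

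Depth limits Gata3, which had 0 to 15 counts in every library.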

Other observations

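Other blood regulators that act beside GATA factors and TAL1 were set side by side in WT and Gata1s libraries. Erg, an ETS factor of stem cells and megakaryocytes, was at 77.7 ± 3.26 CPM in WT (SD, n = 3) and at a mean of at most 0.889 CPM in each Gata1s group. Its relative Fli1 was at 119 ± 8.76 CPM in WT and at 94.8 to 124 CPM as group means in Gata1s cells. Spi1, which encodes the myeloid factor PU.1, was at 253 ± 39.8 CPM in WT and at 17.8 to 58.9 CPM as group means in Gata1s cells. Gfi1, the relative of Gfi1b that acts in myeloid and lymphoid cells, was at 74.8 ± 8.36 CPM in WT and was listed at 0 in all libraries of 4 of the 5 Gata1s groups and at 0.0396 CPM as a mean in LUC. Kit, a receptor gene bound by GATA2 in progenitors and mast cells, was at 260.0 ± 29.5 CPM in WT and at 24.6 to 50.7 CPM as group means. Other genes of the partner and progenitor lists were higher in every Gata1s group than in WT as means. Among them were Tcf3 (130 CPM in WT against 178 to 214), Klf1 (12.4 against 16.7 to 51.2) and Meis1 (49.6 against 81.5 to 192). All these values were chosen after they were seen and have no test.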
